A study of Mus musculus with 24 samples.

Results

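The growth hormone (GH) receptor, STAT5 and insulin-like growth factor (IGF) axis was followed here as 9 genes chosen by symbol, out of 22274 genes in the table. They are Ghr, the receptor of GH; Stat5a and Stat5b, the transcription factors the receptor activates; Socs2 and Cish, which code for feedback inhibitors of the receptor; Igf1, a growth factor whose transcription GH induces in the liver; Igf1r, its receptor; and Igfbp3 and Igfbp5, secreted proteins that bind IGFs. All 9 were listed with reads in every library and all 9 passed the filter on low counts in every comparison.

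GH binds a receptor that has no enzyme activity of its own and works through the kinase JAK2, which phosphorylates STAT5. Phosphorylated STAT5 enters the nucleus and switches on target genes, among them Socs2 and Cish, whose products then dampen the same receptor, and Igf1. In the brain the GH receptor is present in hypothalamic neurons that take part in feedback on GH release, while IGF1 is made by neurons, microglia and other cells.

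The study used male C57BL/6J mice and a model of hypothalamic injury, the pituitary stalk electrical lesion (PEL). In PEL an electric current lesions the stalk, through which the hypothalamus reaches the pituitary. mRNA libraries were made from hypothalamic tissue that held the supraoptic and paraventricular nuclei and from hippocampus, 24 libraries in 8 groups of 3. The hypothalamic groups were Sham, Sham given GH (Sham_GH), PEL at day 3 (PEL_3d), PEL at day 3 given GH (PEL_3d_GH), PEL at day 10 (PEL_10d) and PEL at day 10 given GH (PEL_10d_GH), and the hippocampal groups were HIP_Sham and HIP_PEL_10d, both without GH. The Sham and Sham_GH libraries are labelled day 0, so the lesion and the day after surgery cannot be told apart. The dose, route and schedule of GH and the age of the mice were not given in the sources used here. Nothing states whether the 3 libraries of a group came from separate mice or from pools, so the p-values measure only the spread between these libraries.

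Total counts ranged from 15095267 to 17973494 per library. The library labelled Sham 1 and the library labelled HIP_Sham 1 stood apart. The library labelled Sham 1 had 6.7 summed FPKM over a list of hypothalamic genes, against 1150 and 1220 in the other Sham libraries, with Agrp, Sim1 and Kiss1 at 0, and it had 14900 summed FPKM over a list of choroid plexus genes, against 30.2 and 30.3. Over a list of hippocampal genes it had 285 summed FPKM, against 52.7 and 52.4 in the other Sham libraries and 241 to 392 in the hippocampal libraries other than that labelled HIP_Sham 1. The library labelled HIP_Sham 1 had 990 summed FPKM over the hypothalamic list, against 1.18 and 2.24 in the other HIP_Sham libraries, and 51.2 over the hippocampal list, against 323 and 392. Both were kept under their labels, and values are also given without them. The study itself set a hypothalamic Sham library aside as an outlier, and the sources used here do not say which. No other library stood apart in this way, but the library PEL_10d_GH 3 had 5550 summed FPKM over 8 anterior pituitary genes, against 33.0 and 56.0 in the other PEL_10d_GH libraries, nearly all of it from Pomc.

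STAT5 binds palindromes of the form TTCNNNGAA, and the start of Cish is shown because it holds a pair of them close together. The sequence is the plus strand of RefSeq on GRCm38.p6 at chr9:107296654-107296683, around the start of the Cish transcript, with the letters that match TTCNNNGAA in capitals.
Cish: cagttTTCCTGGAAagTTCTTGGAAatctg
The matches began at bases 1 and 12 of the transcript. The form reads the same on both strands, and 8.3% of 32851 windows of 300 bases around gene starts held it, while 0.457% held it more than once. A window was found for 8 of the 9 genes (all but Socs2), and Cish was the only gene of the 8 whose window held the form. A match is a description of the letters and not a bound site, and no match says only that the letters are not in the window.

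Values are given on separate scales. FPKM, as deposited, scales reads to library size and gene length and allows levels of different genes to be compared. CPM scales counts to library size alone, after TMM normalization, and is the scale of the tests. Per length, Igfbp5 was the most abundant of the 9 genes, with a mean of 71.7 FPKM over the 18 hypothalamic libraries, a level that 95.8% of all genes were below. Stat5b followed at 16 FPKM, Igf1 at 12.9, Igfbp3 at 10.9, Ghr at 7.72, Igf1r at 5.2, Socs2 at 4.89, Cish at 2.63 and Stat5a at 2. The level of Igf1 varied most, by 27-fold between its lowest and highest hypothalamic library, and that of Igf1r least, by 1.59-fold. On the CPM scale the range was 14.9-fold for Igf1 and 1.67-fold for Igf1r. With the library labelled Sham 1 left out the range of Igf1 was 27-fold in FPKM and 15-fold in CPM, and that of Igf1r was 1.27-fold on both scales.

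**Figure D1:**
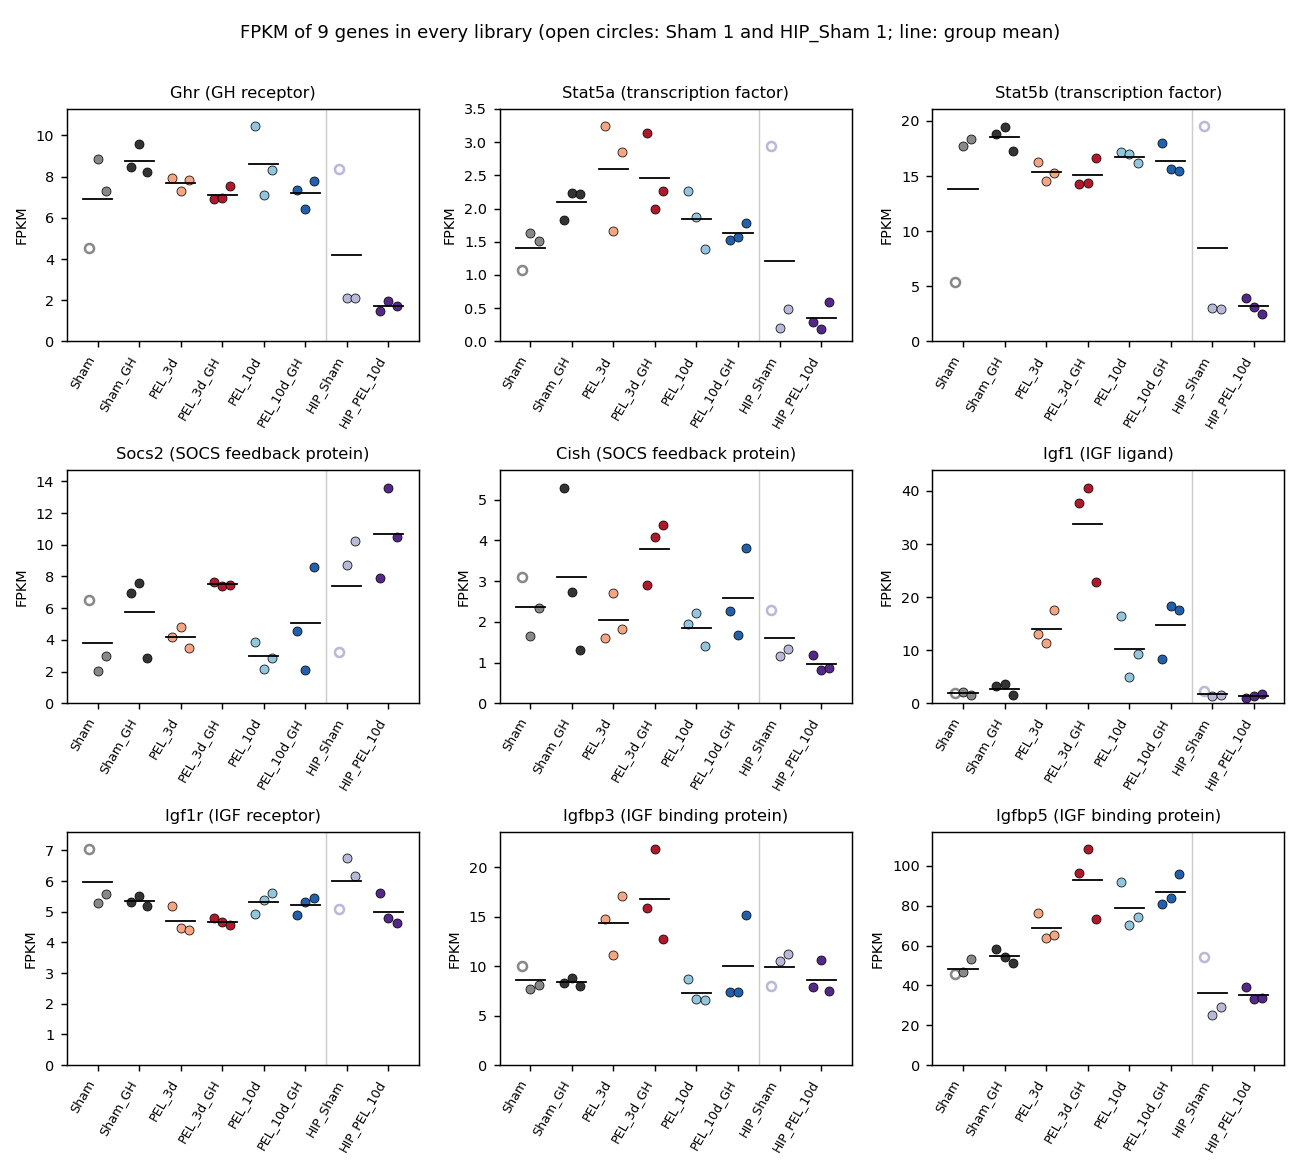
FPKM of the 9 genes in each of the 24 libraries, with 1 panel per gene, groups on the horizontal axis and the group mean as a line. Open circles mark the libraries labelled Sham 1 and HIP_Sham 1, whose Stat5b values of 5.38 and 19.6 FPKM lie far from the other libraries of their groups.

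Socs2 (GRCm38 chr10:95385362-95417180, minus strand) was the only one of the 9 genes that edgeR called for GH at day 3 after PEL with all libraries. Its CPM was 6.98, 8.89 and 6.93 in the PEL_3d libraries and 17.3, 16.2 and 16.6 in the PEL_3d_GH libraries. Every library with GH was above every library without it, and the mean went from 7.6 ± 1.12 to 16.7 ± 0.523 CPM (SD, n = 3 each). The difference was 2.22-fold, with a log2 fold change of 1.15 (SE 0.14) and a Benjamini-Hochberg adjusted p of 0.0469 by edgeR's quasi-likelihood test. Socs2 was 1 of 4 genes called among 14798 (0.027%). The others, named after their values were seen, were Zbtb16, which codes for a zinc finger transcription repressor, at 3.75-fold, Gpr50, a melatonin receptor-related receptor, at 2.37-fold, and Fam107a, a gene that glucocorticoids induce, at 1.46-fold. The call for Socs2 was near the threshold. It was lost without PEL_3d 1 (adjusted p = 0.269), without PEL_3d 3 (0.269), without PEL_3d_GH 1 (0.295) and without PEL_3d_GH 2 (0.2) by edgeR, and it held without PEL_3d 2 (0.0482) and without PEL_3d_GH 3 (0.0233). With all 6 hypothalamic groups in 1 fit the adjusted p was 1, and by DESeq2 it was 1.03e-07. With a library left out the log2 fold change stayed between 1.09 and 1.28.

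Cish, the other feedback inhibitor, moved less clearly in the same comparison. Its CPM was 4.37, 7.36 and 5.04 in PEL_3d and 8, 11.3 and 12.1 in PEL_3d_GH, so the groups did not overlap. This was a log2 fold change of 0.92 (SE 0.23), with an unadjusted p of 0.00308 and an adjusted p of 0.465 by edgeR's test, and the gene ranked 98 of 14798 by p.

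Igf1 showed a difference of the same size as Socs2 with a wider spread. Its CPM was 30.9, 25.1 and 37.2 in PEL_3d and 76.2, 83 and 44 in PEL_3d_GH, and the lowest library with GH was above the highest without it. GH libraries were 2.2-fold higher, a log2 fold change of 1.14 (SE 0.22), with an adjusted p of 0.286 by edgeR's test and 6.61e-05 by DESeq2. Without PEL_3d_GH 3, the lowest of its group, the log2 fold change was 1.37 and the edgeR adjusted p 0.00754. Socs2, Cish and Igf1 were the 3 genes of the 9 whose CPM in PEL_3d_GH did not overlap PEL_3d and was higher, as were 4.85% of all genes tested.

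The carriers and receptors differed less between PEL_3d_GH and PEL_3d. Igfbp5 had 443, 370 and 384 CPM without GH and 562, 635 and 427 CPM with it, which overlapped, and its log2 fold change was 0.46 (SE 0.13, edgeR adjusted p = 0.592). Without PEL_3d_GH 3 the value was 0.59, with an edgeR adjusted p of 0.0297. Log2 fold changes were 0.25 (SE 0.2) for Igfbp3, -0.07 (SE 0.1) for Ghr, -0.05 (SE 0.21) for Stat5a, 0 (SE 0.08) for Stat5b and 0.02 (SE 0.08) for Igf1r, and none of them passed the threshold.

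**Figure D2:**
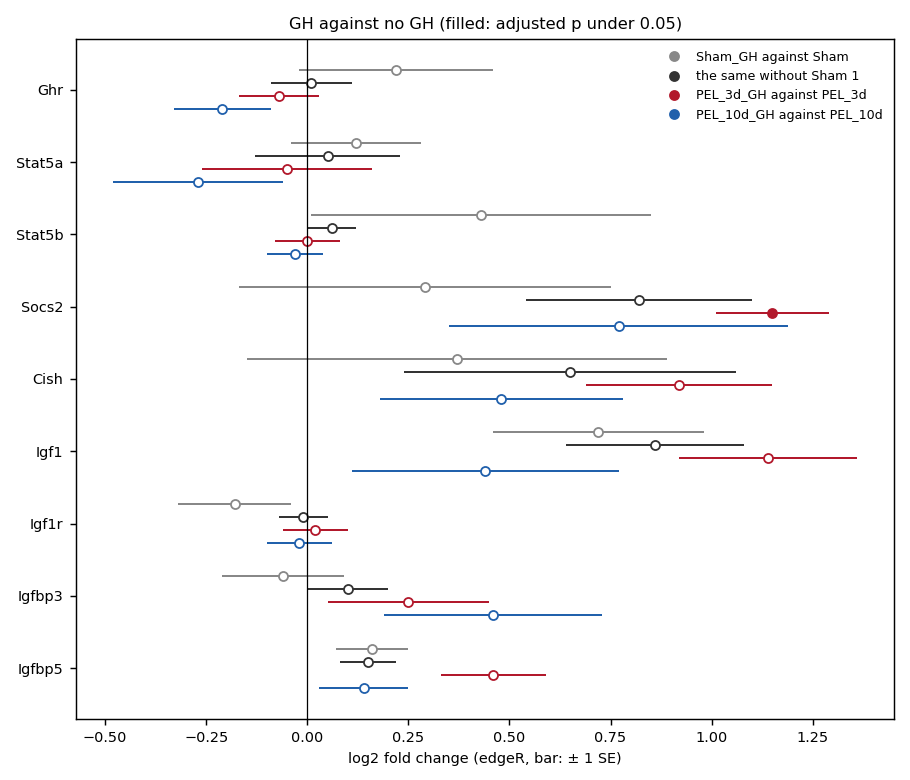
Log2 fold change of each of the 9 genes between libraries with and without GH, by edgeR, in Sham, in Sham without the library labelled Sham 1, in PEL_3d and in PEL_10d. Bars are 1 SE, filled points have an adjusted p under 0.05, and Socs2 in PEL_3d at 1.15 is the only filled point.

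Markers of other cells differed between the same libraries. A list of 10 genes of macrophages and reactive microglia summed to 1830, 1300 and 3170 FPKM in PEL_3d and to 5400, 5230 and 2610 FPKM in PEL_3d_GH, with all 10 genes above 0 in each library. The groups overlapped on this list only through PEL_3d_GH 3, which lay below PEL_3d 3 and above the other PEL_3d libraries. The other PEL_3d_GH libraries lay above every PEL_3d library. A list of 6 genes of tanycytes and ependyma summed to 43.8, 45.4 and 29.7 FPKM in PEL_3d and to 63.3, 48.2 and 61.4 FPKM in PEL_3d_GH, which did not overlap. The part of these cells in the GH differences was not tested. In bulk tissue fewer cells of a type and less RNA per cell cannot be told apart, and this holds for every difference given here.

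In Sham mice no gene was called for GH. Socs2 had 14.3, 5.35 and 7.03 CPM in Sham and 13.6, 12.9 and 6.24 CPM in Sham_GH, where the highest Sham value is that of the library labelled Sham 1. Cish had 9, 4.57 and 6.41 CPM in Sham and 14.7, 7.53 and 3.67 CPM in Sham_GH. Igf1 had 7.8, 6.57 and 5.55 CPM in Sham and 11, 14.1 and 7.76 CPM in Sham_GH. All 3 genes overlapped between the groups, Igf1 only through the library labelled Sham 1. Without that library Sham_GH was higher without overlap for Igf1 and Igfbp3 of the 9 genes, as for 17% of all genes. The library Sham_GH 3 lay within the range of the Sham libraries for Socs2 and below all of them for Cish. Log2 fold changes were 0.29 (SE 0.46) for Socs2, 0.37 (SE 0.52) for Cish and 0.72 (SE 0.26) for Igf1. With edgeR 0 of 14404 genes (0%) were called, 787 had an unadjusted p under 0.05, among them Igf1 of the 9 genes, and DESeq2 called 12 genes, none of the 9. When the library labelled Sham 1 was left out, the log2 fold change was 0.82 (SE 0.28, adjusted p = 0.181) for Socs2, 0.65 (SE 0.41, adjusted p = 0.489) for Cish and 0.86 (SE 0.22, adjusted p = 0.0922) for Igf1. None of the 9 was then called by edgeR, among 159 genes called (1.09%), and 3 of the 9 had an unadjusted p under 0.05 (Socs2, Igf1 and Igfbp5), as had 2187 of 14539 genes. Microglia markers summed to 150 to 164 FPKM in Sham and 116 to 136 in Sham_GH. Tanycyte and ependyma markers summed to 50.8 to 101 and 41.2 to 43.7, and astrocyte markers to 941 to 1050 and 1090 to 1120. None of these lists overlapped, and their part in the GH values was not tested.

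At day 10 after PEL the libraries with GH did not move together. Socs2 had 7.62, 4.34 and 6.95 CPM in PEL_10d and 9.1, 4.9 and 18.1 CPM in PEL_10d_GH. Cish had 5.32, 6.07 and 3.85 CPM in PEL_10d and 6.16, 4.72 and 10.5 CPM in PEL_10d_GH. The library PEL_10d_GH 3 held the highest value of both genes, PEL_10d_GH 2 lay within the range of the libraries without GH for both, and the groups overlapped. Igf1 had 38.8, 17.4 and 27.9 CPM in PEL_10d and 21.4, 47.7 and 45.8 CPM in PEL_10d_GH, which also overlapped. In log2 fold change the difference was 0.77 (SE 0.42, edgeR adjusted p = 0.842) for Socs2, 0.48 (SE 0.3, adjusted p = 0.85) for Cish and 0.44 (SE 0.33, adjusted p = 0.863) for Igf1. Igfbp3 was at 0.46 (SE 0.27), Ghr at -0.21 (SE 0.12) and Stat5a at -0.27 (SE 0.21), and the other 3 genes were between -0.03 and 0.14. edgeR called 0 of 14763 genes (0%), 906 had an unadjusted p under 0.05, none of them among the 9, and DESeq2 called 36 genes, none of the 9. Microglia markers summed to 314 to 345 FPKM in PEL_10d and 387 to 470 in PEL_10d_GH, astrocyte markers to 1390 to 1450 and 1550 to 1950. Oligodendrocyte markers summed to 3290 to 3460 and 3830 to 4320, and macrophage and reactive microglia markers, which overlapped, to 170 to 596 and 224 to 726. Their part in these values was not tested.

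The values for Socs2 and Cish at day 10 rested on 1 library. Without PEL_10d_GH 3 the log2 fold change was 0.16 (edgeR adjusted p = 0.99) for Socs2, 0.1 (0.992) for Cish and 0.29 (0.99) for Igf1. Without PEL_10d_GH 2 the log2 fold change of Socs2 was 1.11 (adjusted p = 0.995). PEL_10d_GH 3 was the library with the high anterior pituitary sum. Pomc, the precursor of adrenocorticotropin, which hypothalamic neurons also make, was at 5478.754 FPKM in it, against at most 80.192 in the other hypothalamic libraries. Of the other 7 genes of the list, Prl, prolactin, was at 32.401 FPKM, against at most 5.054. Gh was lower than in PEL_10d_GH 2, and Pou1f1, a pituitary transcription factor, was at 0. The Gh transcript itself was at 0.889, 7.62 and 4.966 FPKM in PEL_10d_GH 1, 2 and 3. The source of these transcripts was not tested, nor was their part in the values of Socs2 and Cish.

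Over the 3 pairs of groups together, with the base group as a term, the feedback genes and Igf1 were higher with GH at an unadjusted p under 0.05 and did not pass the adjusted threshold. The log2 fold change was 0.73 (SE 0.25) for Socs2, with an unadjusted p of 0.0101 and an edgeR adjusted p of 0.617. For Cish it was 0.58 (SE 0.24), with an unadjusted p of 0.0256 and an adjusted p of 0.776. For Igf1 it was 0.76 (SE 0.2), with an unadjusted p of 0.00137 and an adjusted p of 0.326, and Igfbp5 was at 0.24 (SE 0.08) with 0.0068 and 0.576. The other 5 genes lay between -0.08 and 0.21. By edgeR's test 4 of the 9 genes had an unadjusted p under 0.05, as had 929 of 15214 genes. edgeR called 17 of 15214 genes (0.112%), none of the 9, and DESeq2 called 48, of the 9 only Igf1 (adjusted p = 0.0497). The first 6 of the 17 by p, named after their values were seen, were Hif3a (log2 fold change 1.7), Slc2a1 (0.47), Mfsd2a (0.67), Cyp2d22 (0.31), Klf15 (0.48) and Tsc22d3 (0.68). Leaving out the library labelled Sham 1 gave a log2 fold change of 0.93 (adjusted p = 0.0575) for Socs2, 0.69 (0.234) for Cish and 0.81 (0.0965) for Igf1 by edgeR, and 59 genes were called (0.385%), none of the 9.

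The GH difference was not shown to depend on the lesion or the day. The GH log2 fold change at day 10 minus that at day 3 was -0.37 (SE 0.49) for Socs2, -0.42 (SE 0.41) for Cish and -0.68 (SE 0.46) for Igf1, each with an edgeR adjusted p of 1. That at day 3 minus that in Sham was 0.85 (SE 0.5, adjusted p = 0.606) for Socs2 and 0.31 (SE 0.36, adjusted p = 0.819) without the library labelled Sham 1. That at day 10 minus that in Sham was 0.47 (SE 0.71, adjusted p = 0.807) for Socs2 and -0.05 (SE 0.61) without that library. In none of the 3 contrasts did any of the 9 genes have an unadjusted p under 0.05. edgeR called 0 genes (0%) in each, with 440, 1266 and 1118 genes at an unadjusted p under 0.05, and DESeq2 called 0, 25 and 23 genes. With the library labelled Sham 1 left out, edgeR called 7 genes (0.0462%) for day 3 minus Sham and 0 for day 10 minus Sham, none of them among the 9.

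Of 45 other genes of the axis, which covered the control of GH secretion, GH receptor signalling, the other SOCS proteins, IGF ligands and adaptors, and the other IGF binding proteins and their proteases, none passed the threshold in any GH comparison over all libraries, with 41 or 42 tested. Their median log2 fold change was -0.03 in Sham, 0.03 in PEL_3d and 0.06 in PEL_10d, beside -0.01, 0.01 and 0 over all genes. With the library labelled Sham 1 left out, Irs4, an insulin receptor substrate, was called in Sham with a log2 fold change of -0.3 (SE 0.06, edgeR adjusted p = 0.0285), and Htra1, a protease that cleaves IGF binding proteins, over the 3 pairs with 0.26 (SE 0.05, adjusted p = 0.022).

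Of all genes compared, Cish was the one most like Socs2, and Socs2 the one most like Cish, with all 18 hypothalamic libraries. Over these libraries their Spearman correlation was 0.8, the highest that either had among 13426 genes. The next nearest to Socs2 were Sgk1, a kinase that corticosteroids induce, at 0.76 and Nedd9, a scaffold protein, at 0.75. Without the library labelled Sham 1 this order changed, and over 17 libraries the correlation of Socs2 was 0.79 with Nedd9, 0.78 with Cish and 0.77 with Sgk1. The libraries share group and depth differences, so these values describe likeness only. The correlation with Igf1 was 0.38 for Socs2 and 0.26 for Cish, and with Ghr -0.09 and -0.29, and among the 9 genes Igf1 and Igfbp5 were closer to each other, at 0.84.

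**Figure D3:**
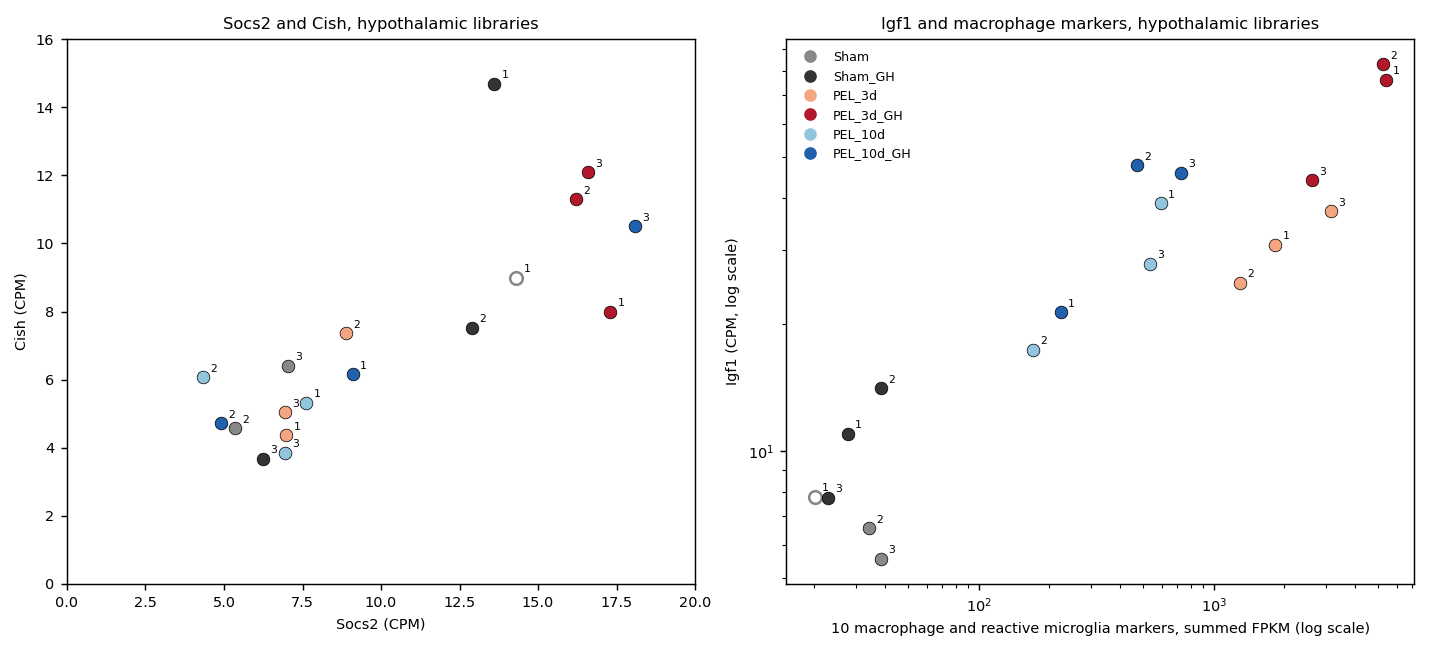
Left, CPM of Socs2 against CPM of Cish in the 18 hypothalamic libraries. Right, CPM of Igf1 against the summed FPKM of 10 macrophage and reactive microglia markers, both on log scales. Numbers are replicate labels and the open circle is the library labelled Sham 1. In the left panel all 3 PEL_3d_GH libraries lie at 16.2 CPM of Socs2 or above, and in the right panel the Sham and Sham_GH libraries lie at or below 38.4 FPKM of the markers and 14.1 CPM of Igf1.

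Of the 9 genes, Igf1 (GRCm38 chr10:87858265-87937042, plus strand) had the largest difference after PEL. It had 7.8, 6.57 and 5.55 CPM in Sham, 30.9, 25.1 and 37.2 in PEL_3d and 38.8, 17.4 and 27.9 in PEL_10d. Every PEL library was above every Sham library at both days. PEL_3d was 4.66-fold above Sham (log2 2.22, SE 0.21, edgeR adjusted p = 0.00143), and without the library labelled Sham 1 it was 5.05-fold above (log2 2.34, adjusted p = 4.38e-06). The call held in all 12 alternative fits, with adjusted p-values from 1.69e-16 to 0.0139.

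At day 10 Igf1 was 4.19-fold above Sham (log2 2.07, SE 0.32, edgeR adjusted p = 0.0403), and 4.57-fold without the library labelled Sham 1 (adjusted p = 0.00419). This call was lost without Sham 2 (0.181), Sham 3 (0.173), PEL_10d 1 (0.135) or PEL_10d 3 (0.181), where the log2 fold change was between 1.76 and 2.07. Both comparisons share the Sham libraries. From low to high, the group means of Igf1 were those of Sham (6.64 ± 1.13 CPM), HIP_Sham (7.12 ± 0.959), HIP_PEL_10d (7.74 ± 1.94), Sham_GH (11 ± 3.17), PEL_10d (28.1 ± 10.7), PEL_3d (31.1 ± 6.09), PEL_10d_GH (38.3 ± 14.7) and PEL_3d_GH (67.7 ± 20.8), SD with n = 3 each. The 4 lowest groups overlapped each other, and none of their libraries reached 17.4 CPM, the lowest value of the other 4. Of these, PEL_10d_GH overlapped each of the others, PEL_10d overlapped PEL_3d, and PEL_3d_GH lay above both PEL_3d and PEL_10d.

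The same 10 macrophage and reactive microglia markers were higher in both PEL groups than in Sham, as Igf1 was. They summed to 20.1 to 38.3 FPKM in Sham, 22.9 to 38.4 in Sham_GH, 1300 to 3170 in PEL_3d and 170 to 596 in PEL_10d. From PEL_3d to PEL_10d the list fell without overlap, while the means of Igf1 were 31.1 and 28.1 CPM and its libraries overlapped. All 10 were above 0 in every PEL library of the hypothalamus, and Mmp12, a macrophage elastase, was at 0 in the libraries labelled Sham 1 and Sham 3 and in Sham_GH 2 and 3. Microglia markers summed to 150 to 164 FPKM in Sham, 670 to 725 in PEL_3d and 314 to 345 in PEL_10d, and leptomeningeal and fibroblast markers to 77.1 to 121, 152 to 274 and 173 to 323. In Sham 2 and 3 the values of the 3 lists were 34.1 to 38.3, 150 to 159 and 120 to 121 FPKM. The order of the 3 libraries by Igf1 was the order by the macrophage list within Sham_GH, PEL_3d and PEL_10d, but not within PEL_3d_GH or PEL_10d_GH, and within Sham it was the opposite. The genes nearest to Igf1 over the 18 libraries were Col1a1 (Spearman 0.97), a fibrillar collagen, Man1c1 (0.97), a mannosidase, and Rcsd1 (0.96), a capping protein regulator, and without the library labelled Sham 1 these were 0.96, 0.97 and 0.96. The part of these cells in the rise of Igf1 was not tested.

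The size of the Igf1 difference depended on the scale. The gene length implied by the deposited count and FPKM of a library was the same for Igfbp5 in all 24 libraries, 6006 bases, and it lay between 2404 and 2421 bases for Igfbp3, but for Igf1 it ranged from 1987 to 5604 bases. It was 3303 to 4038 bases in Sham, 2166 to 2456 in PEL_3d, 1987 to 2092 in PEL_3d_GH and 2478 to 3690 in PEL_10d. The ratio of the group mean of Igf1 to that of Sham was 7.53 in FPKM and 4.68 in CPM for PEL_3d, 18.1 and 10.2 for PEL_3d_GH, 5.48 and 4.22 for PEL_10d, and 7.92 and 5.77 for PEL_10d_GH. Socs2 ranged from 1726 to 2031 bases in PEL_3d and from 2246 to 2327 in PEL_3d_GH, so its FPKM understated the difference in counts there. How the lengths were set is not given in the sources used here.

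**Figure D4:**
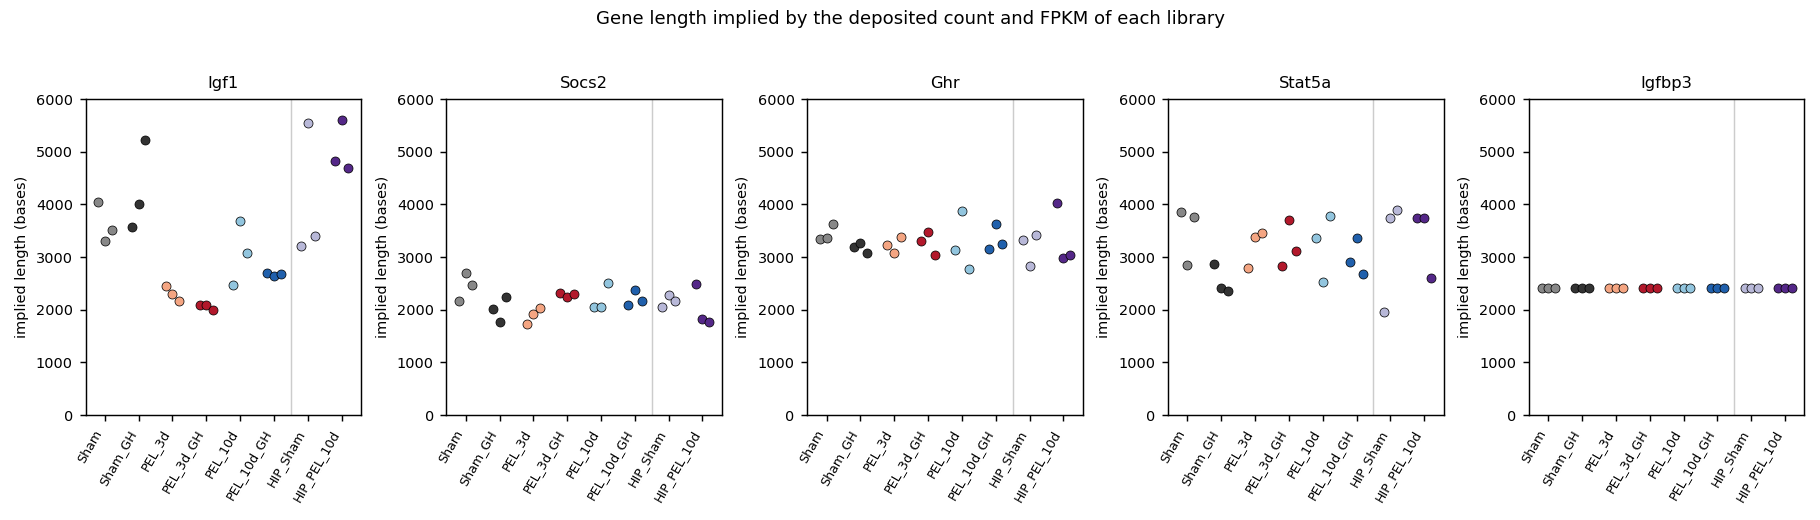
Gene length in bases implied by the deposited count and FPKM of each library, for Igf1, Socs2, Ghr, Stat5a and Igfbp3, with groups on the horizontal axis and 1 point per library. Igfbp3 stays near 2404 bases in all 24 libraries, while Igf1 is lowest in the PEL_3d_GH libraries at 1987 to 2092 bases and reaches 5604 bases in hippocampus.

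Igfbp5, the most abundant carrier (GRCm38 chr1:72857932-72874884, minus strand), rose at day 3 after PEL in a call that was close to the threshold. It had 281, 271 and 307 CPM in Sham, 443, 370 and 384 in PEL_3d and 529, 408 and 435 in PEL_10d, with no overlap between Sham and either PEL group. At day 3 it was 1.39-fold above Sham (log2 0.47, SE 0.11, edgeR adjusted p = 0.0416). With 2 Sham libraries, Sham 1 left out, the adjusted p was 0.0025 at a log2 fold change of 0.44. The call was lost without Sham 2 (0.135), Sham 3 (0.0872), PEL_3d 1 (0.164), PEL_3d 2 (0.0834) or PEL_3d 3 (0.148), and with other size factors (0.0573), no filter (0.0506), a mean count of 50 or more (0.0505) or the replicate block (0.132). It also held by DESeq2 (0.00451) and with all 6 hypothalamic groups in 1 edgeR fit (0.0201), so in 3 of 12 alternative fits. At day 10 it was 1.58-fold above (log2 0.66, SE 0.13, adjusted p = 0.0701), and 1.56-fold and called without the library labelled Sham 1 (0.00942). There it was also called by DESeq2 (0.000563) and with all 6 groups in 1 edgeR fit (0.00714), so in 3 of 12 alternative fits. Astrocyte markers summed to 941 to 1050 FPKM in Sham, 1670 to 1890 in PEL_3d and 1390 to 1450 in PEL_10d, and endothelial and mural markers to 174 to 187, 236 to 282 and 220 to 296. Both lists lay above Sham at both days, and their part in the values of Igf1, Igfbp5 and Igfbp3 was not tested. The genes nearest to Igfbp5 over the 18 libraries were Adamts10 (Spearman 0.95), an extracellular protease, Eln (0.94), elastin, and Mgp (0.94), a matrix protein, and its correlation with Igf1 was 0.84. Over the 17 libraries other than that labelled Sham 1 these were 0.94, 0.94, 0.93 and 0.83.

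In mice without GH, Igfbp3 was called by edgeR after PEL at day 3 alone, and there only when the library labelled Sham 1 was left out. It had 24.8, 18 and 18.7 CPM in Sham, 34.4, 25.8 and 40.3 in PEL_3d and 20, 15.6 and 15.3 in PEL_10d. PEL_3d did not overlap Sham and PEL_10d did. At day 3 the log2 fold change was 0.7 (SE 0.21, edgeR adjusted p = 0.0908), and 0.84, a 1.79-fold difference, without the library labelled Sham 1 (SE 0.16, adjusted p = 0.00205). At day 10 it was -0.29 (SE 0.18, adjusted p = 0.652), and -0.13 without that library (adjusted p = 0.609). The difference between the days was not tested.

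The direction for Stat5b depended on the library labelled Sham 1. It had 27.8, 87.1 and 89.3 CPM in Sham, with the lowest value in that library, 79.6, 71.1 and 75.7 in PEL_3d and 83.2, 83 and 79.6 in PEL_10d. With all libraries the log2 fold change at day 3 was 0.14 (SE 0.41, edgeR adjusted p = 0.882). Without the library labelled Sham 1 it was -0.25 (SE 0.07, adjusted p = 0.019), so the direction turned, and PEL_3d lay below the remaining Sham libraries, as did 29.6% of genes. At day 10 the log2 fold change was 0.26 (SE 0.41) with it and -0.12 (SE 0.07, adjusted p = 0.296) without it. Stat5a lies next to Stat5b on chromosome 11 (GRCm38 chr11:100859351-100885169 against chr11:100780731-100850724), and the counts of both were not whole numbers in 23 of the 24 libraries, so reads shared between these related genes may have been divided. Stat5a had 4.27, 4.51 and 5.49 CPM in Sham and 8.75, 5.4 and 9.6 in PEL_3d (log2 0.73, SE 0.26, adjusted p = 0.139, and 0.64, adjusted p = 0.0646, without the library labelled Sham 1). With all 6 hypothalamic groups in 1 edgeR fit Stat5a was called, at 0.69 with an adjusted p of 0.0211.

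The receptors and the feedback genes were not called by edgeR for PEL alone, with all libraries or without the library labelled Sham 1. Ghr was at a log2 fold change of 0.04 (SE 0.24) at day 3 and 0.19 (SE 0.26) at day 10, and at -0.2 (SE 0.11) and -0.04 (SE 0.14) without the library labelled Sham 1. Igf1r had 81.9, 58.7 and 61.3 CPM in Sham and 57.1, 49 and 49.2 in PEL_3d, which did not overlap (log2 -0.39, SE 0.16, edgeR adjusted p = 0.182, and -0.23, adjusted p = 0.0538, without the library labelled Sham 1). With all 6 hypothalamic groups in 1 edgeR fit Igf1r was called, at -0.42 with an adjusted p of 0.012. Socs2 was at -0.24 (SE 0.38) at day 3 and -0.51 (SE 0.42) at day 10, and at 0.27 (SE 0.2) and 0.01 (SE 0.26) without that library. Cish was at -0.26 (SE 0.32) and -0.4 (SE 0.31), and at 0 (SE 0.26) and -0.13 (SE 0.25) without it.

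In all, 2 of the 9 genes were called at day 3, beside 11.4% of 14726 genes, and 4 without the library labelled Sham 1, beside 40.5% of 14905 genes. Of these 4, Igf1, Igfbp3 and Igfbp5 were higher, where 22.2% of genes were, and Stat5b lower, where 18.2% were. At day 10, 1 of the 9 was called, beside 1.84% of 14610 genes, and 2 without that library, beside 9.4% of 14801. Igf1, Igfbp3 and Igfbp5 had higher CPM without overlap at day 3, as did 22.7% of all genes tested, and Igf1r lower, as did 13%. At day 10 Igf1 and Igfbp5 were higher without overlap, as were 12.5%. Against the 2 Sham libraries other than that labelled Sham 1 the same genes did not overlap, where 32.9% of all genes were higher without overlap at day 3 and 23.7% at day 10. Stat5b was then lower in addition at both days, as were 19.5% of genes at day 10.

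**Figure D5:**
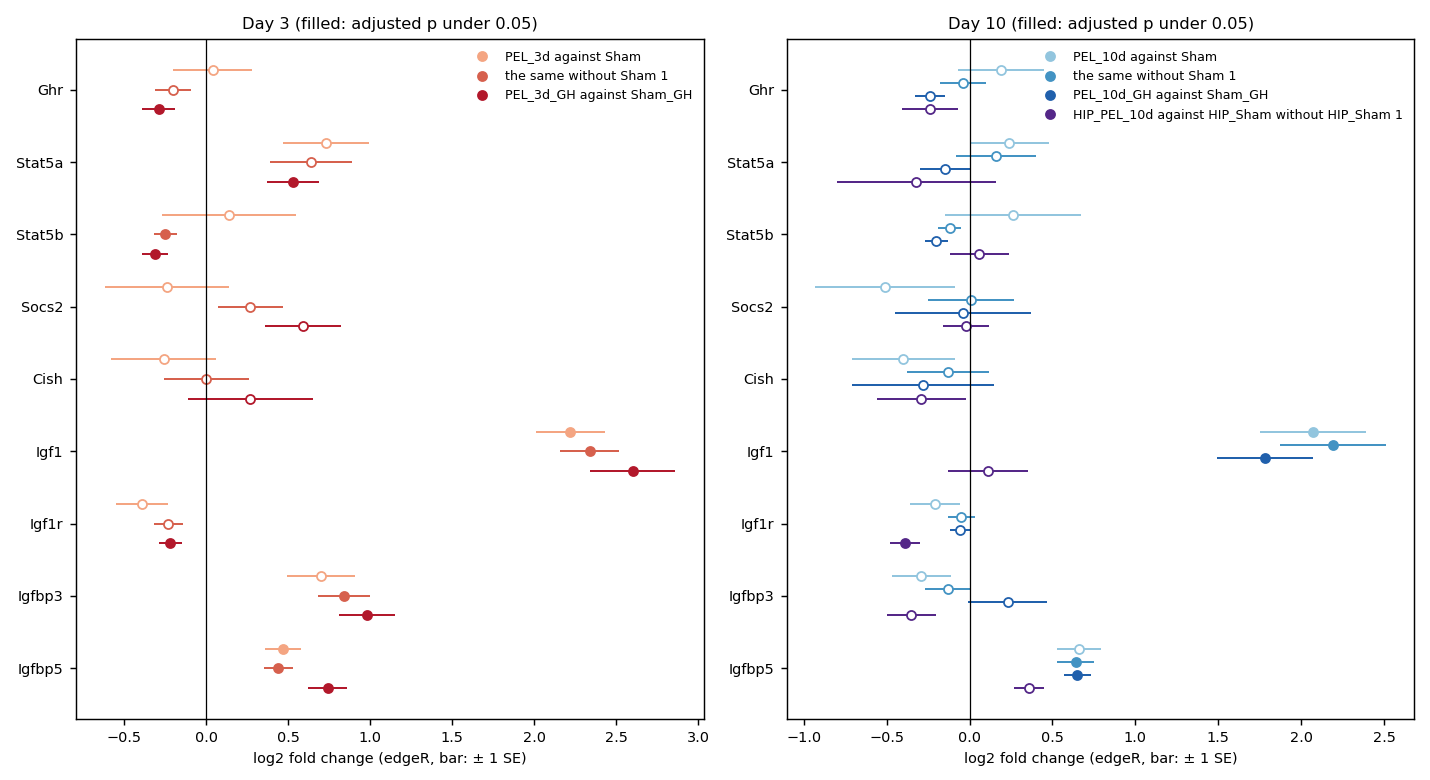
Log2 fold change of each of the 9 genes after PEL, by edgeR, at day 3 on the left and at day 10 on the right. The points stand for PEL against Sham with and without the library labelled Sham 1, for PEL with GH against Sham_GH and, on the right, for hippocampus without the library labelled HIP_Sham 1. Bars are 1 SE and filled points have an adjusted p under 0.05. Igf1 lies at 2.22 to 2.6 at day 3 and at 1.78 to 2.19 at day 10 in hypothalamus, and at 0.11 in hippocampus.

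Among mice given GH the lesion was compared with Sham_GH, whose libraries had 793 to 1150 summed FPKM over the hypothalamic list. At day 3, 7 of the 9 genes were called, where 52.1% of 14743 genes were, 4 higher (26.9% of genes) and 3 lower (25.2%). Igf1 rose from 11, 14.1 and 7.76 to 76.2, 83 and 44 CPM, 6.08-fold (log2 2.6, SE 0.26, edgeR adjusted p = 2.58e-05). Igfbp3 rose from 19.6, 20.7 and 19 to 37.2, 51.4 and 29.8 CPM, 1.98-fold (adjusted p = 0.000879), and Igfbp5 from 340, 317 and 305 to 562, 635 and 427 CPM, 1.67-fold (0.00069). Stat5a also rose, 1.44-fold (0.0166). Macrophage and reactive microglia markers summed to 22.9 to 38.4 FPKM in Sham_GH and 2610 to 5400 in PEL_3d_GH. Microglia markers summed to 116 to 136 and 624 to 835, and astrocyte markers to 1090 to 1120 and 1680 to 1970. The part of these cells in the rises was not tested. PEL_3d_GH did not overlap Sham_GH for 8 of the 9 genes. Igf1, Igfbp3, Igfbp5, Stat5a and Socs2 were higher, as were 31.8% of all genes, and Ghr, Stat5b and Igf1r lower, as were 28.9%.

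The 3 genes that fell at day 3 under GH fell by little. The log2 fold change was -0.29 (SE 0.1, edgeR adjusted p = 0.0342) for Ghr, -0.31 (SE 0.08, adjusted p = 0.00685) for Stat5b and -0.22 (SE 0.07, adjusted p = 0.0178) for Igf1r. Neuron markers summed to 1190 to 1300 FPKM in Sham_GH and 800 to 1010 in PEL_3d_GH, and the part of this in the lower values was not tested. Several calls depended on the fit or on 1 library. With all 6 hypothalamic groups in 1 edgeR fit Ghr (0.205), Stat5b (0.372), Igf1r (0.153) and Stat5a (0.0548) were lost, and Ghr also by DESeq2 (0.0503) and with a mean count of 50 or more (0.0551). Ghr was lost without Sham_GH 1 (0.0668), Sham_GH 2 (0.176) or PEL_3d_GH 1 (0.101), Igf1r without Sham_GH 1 (0.0581) or 2 (0.0853), and Stat5a without Sham_GH 1 (0.0535) or PEL_3d_GH 1 (0.0809). Socs2, at a log2 fold change of 0.59 (SE 0.23, adjusted p = 0.0545), was called in 6 of 12 alternative fits, by DESeq2 (0.0297), with no filter (0.0393), with a mean count of 50 or more (0.0482), with the replicate block (0.0201) and without Sham_GH 1 (0.0377) or PEL_3d_GH 3 (0.0449). Cish, at 0.27 (SE 0.38, edgeR adjusted p = 0.581), was called without Sham_GH 1 (0.0445).

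At day 10 under GH, 2 of the 9 genes were called, where 30.9% of 14686 genes were. Igf1 was 3.44-fold above Sham_GH (log2 1.78, SE 0.29, edgeR adjusted p = 0.00148) and Igfbp5 1.57-fold (log2 0.65, SE 0.08, adjusted p = 0.000209), and both were higher without overlap, as were 24.3% of genes. Macrophage and reactive microglia markers summed to 22.9 to 38.4 FPKM in Sham_GH and 224 to 726 in PEL_10d_GH, microglia markers to 116 to 136 and 387 to 470, astrocyte markers to 1090 to 1120 and 1550 to 1950, and oligodendrocyte markers to 2150 to 2390 and 3830 to 4320. Their part in these rises was not tested. Ghr was lower without overlap, as were 21.1%. Stat5b was at -0.2 (SE 0.07, adjusted p = 0.0551), and at -0.27 and called without PEL_10d_GH 1 (0.00668). The log2 fold change of Ghr was -0.24 (SE 0.09, adjusted p = 0.0777). Igfbp3, Socs2, Cish, Stat5a and Igf1r lay between -0.28 and 0.23. These comparisons share the Sham_GH libraries, and each shares its PEL libraries with a GH comparison above.

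The count of other axis genes called at day 3 after PEL depended on the library labelled Sham 1. With all libraries 5 of 41 tested were higher, where 10.4% of all genes were, and 0 were lower, where 1.04% were, with a median log2 fold change of -0.14 beside 0 over all genes. The 5 were Ptpn6, a phosphatase of blood cells that acts on JAK2, at 8.03-fold, Socs3, a feedback inhibitor of cytokine receptors, at 6.16-fold, Shc1, an adaptor, at 2.53-fold, Pappa, a protease of IGF binding proteins, at 2.15-fold, and Stat3 at 2.11-fold. The macrophage and microglia lists were higher in PEL_3d than in Sham without overlap, at 1300 to 3170 against 20.1 to 38.3 FPKM and 670 to 725 against 150 to 164 FPKM, and their part in these rises was not tested. Without the library labelled Sham 1, 11 of 42 were called higher, where 22.2% of all genes were, and 14 lower, where 18.2% were, and 7 of the 9 tested genes that control GH secretion were lower. The hypothalamic list summed to 1150 and 1220 FPKM in Sham 3 and 2 and to 737 to 854 in PEL_3d, and neuron markers to 1160 and 1170 in those Sham libraries and to 940 to 1050 in PEL_3d. The part of this in the lower values was not tested. The lowest were Ghrh, GH-releasing hormone (log2 -1.74, SE 0.26, edgeR adjusted p = 0.00051), Ghsr, the ghrelin receptor (-1.07), and Sstr5, a somatostatin receptor (-1), and the highest were Ptpn6 (3.3), Socs3 (2.5) and Igfbp7 (2.08). With all libraries Ghrh was at -1.15 (SE 1, adjusted p = 0.535).

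At day 10, Ptpn6 (3.56-fold) was the 1 gene called of 41, where 1.84% of all genes were. Leaving out the library labelled Sham 1, 6 of 42 were higher, where 7.97% of all genes were, led by Ptpn6 (log2 2.14), Igfbp4 (1.34) and Igf2 (1.06). Lower were 2, where 1.43% of all genes were, Irs4 (-0.61) and Grb10 (-0.3), an adaptor of the insulin and IGF1 receptors. Under GH at day 3, 13 of 41 were higher, where 26.9% of all genes were, and 14 lower, where 25.2% were, led by Ptpn6 (4.09), Igfbp7 (2.29) and Socs3 (1.53) and at the other end by Ghsr (-1.11), Sstr4 (-0.94) and Sstr3 (-0.83). Under GH at day 10, 12 of 42 were higher, where 17.7% of all genes were, and 7 lower, where 13.3% were, led by Gh (3.43), Ptpn6 (3) and Igfbp7 (1.36) and by Ghsr (-1.07), Sstr5 (-0.76) and Irs4 (-0.69), and 6 of the 10 other IGF binding proteins and proteases tested were higher. Gh was at 0.89, 0.199 and 0.144 FPKM in Sham_GH and at 0.889, 7.62 and 4.966 FPKM in PEL_10d_GH, which overlapped, and the anterior pituitary genes summed to 51.4 to 68.1 FPKM in Sham_GH and to 33.0, 56.0 and 5550 in PEL_10d_GH. The part of these transcripts in the value of Gh was not tested.

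In hippocampus none of the 9 genes passed the threshold after PEL with all libraries. The hippocampal libraries other than that labelled HIP_Sham 1 had 1.477 to 2.125 FPKM of Ghr, against 6.445 to 10.472 in the hypothalamic libraries other than that labelled Sham 1. They had 2.468 to 3.966 FPKM of Stat5b, against 14.266 to 19.434, 0.195 to 0.589 of Stat5a, against 1.393 to 3.245, and 25.091 to 39.154 of Igfbp5, against 46.447 to 108.292. These 4 of the 9 genes were lower in hippocampus without overlap, as were 25.2% of 13346 genes with a mean of at least 1 FPKM, and the other 5 overlapped in FPKM. In CPM Socs2 did not overlap. It had 21 to 27.6 CPM in these hippocampal libraries, above the 4.34 to 18.1 CPM of the 18 hypothalamic libraries, and no share of all genes is given for this. The difference between the tissues was not tested. Igf1 had 7.19, 8.04 and 6.12 CPM in HIP_Sham and 5.53, 8.55 and 9.14 CPM in HIP_PEL_10d, which overlapped (log2 0.1, SE 0.23, edgeR adjusted p = 0.87). Socs2 had 6.42, 22.2 and 24.5 CPM in HIP_Sham, with the lowest in the library labelled HIP_Sham 1, and 21.4, 27.6 and 21 CPM in HIP_PEL_10d. The macrophage and reactive microglia list summed to 10.8 to 40.7 FPKM in HIP_Sham, or 10.8 and 11.7 without the library labelled HIP_Sham 1, and 11.1 to 22.7 in HIP_PEL_10d. Microglia markers summed to 141 to 160 FPKM in HIP_Sham and 170 to 219 in HIP_PEL_10d, which did not overlap. The part of these cells in the hippocampal values was not tested.

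edgeR called 0 of 14039 genes (0%) in hippocampus with all libraries, 1434 had an unadjusted p under 0.05, none of them among the 9, and DESeq2 called 231, none of the 9. Ghr was lower without overlap, at 26.8, 6.72 and 8.03 CPM in HIP_Sham and 6.49, 6.57 and 5.97 CPM in HIP_PEL_10d, as were 9.65% of genes, with a log2 fold change of -1.14 (SE 0.55, adjusted p = 0.527) and -0.24 (SE 0.17, adjusted p = 0.419) without the library labelled HIP_Sham 1. Igf1r had 56.2, 86.4 and 78 CPM in HIP_Sham and 69.4, 60.7 and 60 CPM in HIP_PEL_10d. It overlapped only through the library labelled HIP_Sham 1, and without that library its log2 fold change was -0.39 (SE 0.09) with an adjusted p of 0.0408, 1 of 873 genes called (6.15%). Ghr and Igf1r were then lower without overlap, as were 19% of genes, and Igfbp5 higher, as were 24.7%. The log2 fold change of Igfbp5 was then 0.36 (SE 0.09, adjusted p = 0.0552), with Stat5b at 0.06 (SE 0.18), Socs2 at -0.02 (SE 0.14) and Igf1 at 0.11 (SE 0.24). Astrocyte markers summed to 782 and 888 FPKM in HIP_Sham 2 and 3 and to 957 to 1020 in HIP_PEL_10d. Leptomeningeal and fibroblast markers summed to 16.1 and 19.9 against 26.6 to 73.5 FPKM. Their part in the value of Igfbp5 was not tested. Of 38 other axis genes none was called with all libraries, and 3 were lower without the library labelled HIP_Sham 1, where 577 of 14191 genes were. The 3 were Prlr, the prolactin receptor (log2 -3.73), Igf2 (-2.77) and Igfbp2 (-2.45). The choroid plexus list, which holds Prlr, summed to 4350 and 5450 FPKM in HIP_Sham 2 and 3 and to 39.7 to 800 FPKM in HIP_PEL_10d, and its part in these values was not tested.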

How the data were processed

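The authors deposited an estimated count and an FPKM value per gene for each of 24 libraries. The study aligned reads with Hisat2 and counted them with featureCounts, and the submitters' notes name GRCm38 and mm10. Of the deposited counts 8.22% are not whole numbers, so they were rounded. FPKM was used as deposited, for levels and marker sums. Symbols were found for 22219 of 22274 gene identifiers.

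The comparisons were quasi-likelihood tests of edgeR (4.0.16, in R 4.3.3) on TMM-scaled counts, over the genes that filterByExpr kept at a minimum count of 10. P-values were Benjamini-Hochberg adjusted over all genes tested, 0.05 was the threshold, and no group outside a comparison entered its fit. CPM values, computed here, are counts scaled to library size with TMM factors. The scripts were tested on simulated data. Alternatives were DESeq2 1.42.0, its size factors in edgeR, no filter, a mean count of 50 or more, a replicate block, all 6 hypothalamic groups in 1 fit, and each library left out. Python 3.11.15 was used with pandas 2.3.3, numpy 2.4.6 and, for plots, matplotlib 3.10.9. Replicates of a group differed by 3.19 to 19.7 in chi-square per degree of freedom, except the 4 pairs with a library labelled Sham 1 or HIP_Sham 1 (156 to 160), and none were identical. Total counts had a median of 15883700, and counting error was not separated from the spread between libraries.

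HIP_Sham 3 is hippocampal by its title but hypothalamic by its tissue field, and was grouped by its title. The 9 genes are named in every comparison. Other axis genes come from 5 lists, less 1 gene that is not reported here, and those past the threshold are named, or the 3 highest and 3 lowest where more than 6 passed. The 3 genes most like each of the 9 were ranked by Spearman correlation of FPKM among 13426 genes. The genes, lists and tests were chosen with earlier results of these data known. Promoter windows came from RefSeq on GRCm38.p6.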

Additional observations from a re-analysis of the deposited data

How the results depend on the processing

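Of 1556 settings of single genes and comparisons, 1502 kept their direction or stayed uncalled, 33 lost a call, 20 gained one and 1 reversed, which was Stat5b in PEL_3d against Sham (log2 -0.25 without Sham 1, and up to 0.38 with another library left out). In 71 settings an uncalled value changed sign. Of the 9 genes, GH in PEL_3d called 1, against 2 by DESeq2, 0 with all 6 groups in 1 fit and 0 to 3 with a library left out. GH over the 3 pairs called 0, against 1 by DESeq2. PEL_3d called 2 (1683 of 14726 genes in all), against 1 with size factors (1619 of 14726), 1 with no filter (1610 of 17963) and 1 with a mean count of at least 50 (1288 of 13037). It called 4 with all 6 groups (4473 of 15214) and 1 to 4 with a library left out (821 to 6035 genes). PEL_10d called 1, against 2 by DESeq2, 2 with all 6 groups and 0 to 2 with a library left out. PEL_3d under GH called 7 (7681 of 14743 genes in all), against 3 with all 6 groups (5938 of 15214). It called 8 with no filter (7653 of 17944), 8 with the replicate block (7746 of 14743) and 5 to 8 with a library left out (6232 to 8815 genes). The hippocampus called 0, and 0 to 1 with a library left out. For Igf1 the highest group mean, of PEL_3d_GH, was 24.4-fold above the lowest, of HIP_PEL_10d, in FPKM, and 10.2-fold above the lowest, of Sham, in CPM. Against Sham on both scales it was 18.1-fold and 10.2-fold above. The cause was not tested.

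Counts over all genes moved more. With a library left out they were 0 to 159 for GH in Sham (0 with all), 1 to 56 for GH in PEL_3d (4), 8 to 59 over the 3 pairs (17), 821 to 6035 for PEL_3d (1683), 0 to 1392 for PEL_10d (269), 0 to 873 in hippocampus (0) and 0 to 7 for the GH effect at day 3 minus Sham (0). DESeq2 called 12, 59, 48, 2795, 700, 231 and 25 in that order, and 36 for GH in PEL_10d and 23 for the effect at day 10 minus Sham (0 each by edgeR). All 6 groups in 1 fit called 7 for GH in Sham, 0 for GH in PEL_3d, 4473 for PEL_3d, 982 for PEL_10d, 1957 for PEL_10d under GH (4545) and 1 for the effect at day 3 minus Sham. No filter called 8 for GH in PEL_3d, and the PEL pairs alone called 29 over the pairs.

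Replicate numbers pair nothing by the labels, and deviations of same-numbered libraries correlated by -0.29 to 0.23. The replicate block changed 5 of 108 calls. GH in PEL_3d then called 0 of the 9 genes (Socs2 adjusted p = 0.354), PEL_3d 1 (Igfbp5 0.132) and PEL_10d 0 (Igf1 0.102), while Socs2 in PEL_3d under GH (0.0201) and Stat5b in PEL_10d under GH (0.0363) were called. With the block 1, 11, 980 and 0 genes were called for GH in PEL_3d, GH over the pairs, PEL_3d and PEL_10d.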

Other observations

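The gene length implied by the deposited count and FPKM varied by more than 1.5-fold between libraries in 943 of 12863 genes (7.33%), counted where the mean count was at least 50 and FPKM was above 0 in every library. Of the 9 genes it varied by 2.82-fold for Igf1, 1.98-fold for Stat5a, 1.56-fold for Socs2 and 1.46-fold for Ghr over the 24 libraries, and by at most 1.2-fold for the other 5.

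Genes nearest to the remaining members over the 18 hypothalamic libraries, by Spearman correlation of FPKM, were Map6, Dctn1 and Gaa for Stat5b (0.97 each), Rce1 (0.92), Mest (0.89) and Tars (0.87) for Igfbp3, Chpf2 (0.89), Msh6 (0.84) and Abcb6 (0.83) for Stat5a, Ahcyl2 (0.88), Egr1 (0.86) and Gigyf2 (0.86) for Igf1r, Gm3752 (0.84), Vps11 (0.79) and Ranbp3 (0.78) for Ghr, and Emc6 and Mrpl53 (0.74 each) for Cish after Socs2. Without the library labelled Sham 1 none of the correlations with the nearest genes changed by more than 0.04. These describe likeness between libraries that share groups and depth.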
